A study of Mus musculus with 8 samples.

Results

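Joins between a bait in Dach1 on mouse chromosome 14 and another autosome are described here, for the reads whose other end could be placed with confidence. Cas9 was directed to the bait in every library except the control with a non-targeting sgRNA. A member was a distinct junction of a site 1 off-cut list, defined by chromosome, the 5′ end of the read and its strand, that lay on 1 of the 18 autosomes other than chromosome 14 and had a highest mapping quality of at least 30. There were 1694 members, 40.7% of the 4163 interchromosomal autosomal ends at site 1. The lists of the whole series, on-cut and off-cut, held 11310 distinct junctions. The members rested on 2748 reads, and 1103 members had 1 read. Mapping quality and chromosome chose the members, so the counts that follow from them are descriptions. A quality of 42, the highest in the lists, was held by 1470 members (86.8%). Just inside the threshold 38 members had a quality of 30 to 34, and just outside it 27 ends had a quality of 25 to 29.

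When a chromosome is cut, its ends are usually rejoined to each other by end-joining repair. An end can also join a break elsewhere, and a join to another chromosome is a translocation. Sequencing outward from a primer beside a chosen cut (the bait) reads the partner sequence (the prey), so each junction marks a place where prey DNA was attached. Ataxin-7, a subunit of the SAGA chromatin-modifying complex, carries a polyglutamine tract whose expansion causes spinocerebellar ataxia type 7.

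The study asked how expanded ataxin-7 bears on such joins in Neuro-2a cells, a mouse neuroblastoma line. Each library began with 5000000 transfected cells, harvested after 48 h. The cells of 3 transfections were pooled, 1000000 of them positive for GFP were collected by flow cytometry, and their DNA was broken into fragments of 750 bp. The 10Q library came from cells given ataxin-7 with 10 glutamines, Cas9 and the site 1 sgRNA, and the 92Q library from cells given ataxin-7 with 92 glutamines, Cas9 and the same sgRNA. The sgRNA-only library had Cas9 and the site 1 sgRNA from plasmid PX458 without ataxin-7. The non-targeting library had Cas9 with a non-targeting sgRNA and was read with the same bait primer. All 4 were transient transfections of 1 cell line with 1 library each, so every test below compares libraries, not conditions. The series' design text names the site 2 and the non-targeting sgRNA for its control experiment, but an sgRNA-only library of site 1 is present among the labelled samples, and each comparison with it rests on its label.

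The bait end lay at position 98168726 of chromosome 14 (mm10), inside Dach1 (97786846 to 98169765), which encodes a dachshund-family transcription factor. The bait primer was common to all members, and the guide only to those of the libraries given the site 1 sgRNA. Both are shown first, 5′ to 3′, as the labels give them.
site 1 sgRNA spacer: ggtagacatcagcgctgttg
site 1 bait primer: actaaaaagagcgcccctctttc
Next are prey places in 4 promoters, chosen because their members had at least 2 reads in a library or, for Shld1, occurred in every library. Slc3a2, an amino acid transporter gene, also had such a member, with 4 reads in 10Q, but its junction lay 32 bases past the gene start, outside the stretch printed for promoters. They come from RefSeq promoter windows on GRCm38.p6 and run in the direction of the read. Capitals mark the prey bases from the junction on, and the lower-case bases before them are genomic sequence on the other side of the junction.
Shld1, chr2:132690150-132690186, minus strand: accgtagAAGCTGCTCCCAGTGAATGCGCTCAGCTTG
Gbp7, chr3:142530209-142530268, minus strand: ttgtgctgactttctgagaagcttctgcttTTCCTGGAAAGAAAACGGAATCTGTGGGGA
Gpr107, chr2:31152235-31152294, minus strand: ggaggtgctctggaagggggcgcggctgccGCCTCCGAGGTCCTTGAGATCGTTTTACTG
Wdr70, chr15:8099282-8099341, plus strand: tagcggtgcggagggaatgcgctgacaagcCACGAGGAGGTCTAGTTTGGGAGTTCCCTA

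The Shld1 junction, at position 132690179, was 22 bases past an annotated gene start. Shld1 encodes a subunit of shieldin, the complex that shields broken DNA ends from resection. The Gbp7 junction lay 98 bases before the start of a guanylate-binding protein gene of the interferon response and had 5 reads, all in the 10Q library. The Gpr107 junction, 52 bases before the start of a Golgi membrane protein gene, had 3 reads in the sgRNA-only library, and the Wdr70 junction, 103 bases before the start of a WD-repeat protein gene, had 2 reads in the 10Q library.

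Members reached promoters more often than the length of promoters would give. A window from 250 bases before to 50 bases after a gene start held 18 of the 1639 members on the 17 chromosomes for which windows were available, or 1.10% (95% exact Clopper-Pearson interval 0.652 to 1.73%). These windows made up 0.377% of the sequence. They were split as 9 members in 10Q, 2 in 92Q, 5 in sgRNA only and 2 in non-targeting, and the 4 members at Shld1 were the same end. In the bases just before these 18 junctions, 3 to 10 of the 23 primer positions matched, and the longest match at the primer's 3′ end was 2 bases. The best match to the 20-base spacer next to NGG on either strand held 6 to 12 bases in the windows with a member, with a median of 10, against a median of 9 over all windows. At least 12 matching bases were found in 4.17% of all windows. The match of 12 bases was in a window whose member came from the non-targeting library, which lacked this guide. Windows with a member of a targeted library reached 11. The median GC content was 54.7% in windows with a member and 53.0% in all windows.

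The libraries gave very different numbers of members. There were 839 in the 10Q library (exact Poisson 95% interval 783 to 898), 238 in 92Q (209 to 270), 555 in sgRNA only (510 to 603) and 62 in non-targeting (47.5 to 79.5). The total reads of these libraries were 13152, 963, 8812 and 625, so the number of members moved with depth and is not read as a rate of translocation. No molecular identifier was used here to separate PCR copies, and each interval covers counting error alone. Well-mapped ends were 39.7% of the interchromosomal ends in 10Q (37.6 to 41.8%), 44.4% in 92Q (40.1 to 48.7%), 39.3% in sgRNA only (36.7 to 41.9%) and 62.6% in non-targeting (52.3 to 72.1%).

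Read support per member was lowest in the 92Q library. There 11 of 238 members (4.62%) had 2 or more reads, compared with 357 (42.6%) in 10Q, 200 (36.0%) in sgRNA only and 23 (37.1%) in non-targeting. The mean was 1.18 reads per member in 92Q, 1.75 in 10Q, 1.59 in sgRNA only and 1.84 in non-targeting. A single 92Q member, on chromosome 18 outside protein-coding genes, had 34 reads, while no other member exceeded 11. Quality 42 was held by 81.1% of the 92Q members, 88.1% of 10Q, 87.0% of sgRNA only and 88.7% of non-targeting.

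Of the 4 shares tested between libraries (gene body, strand, gene-rich and distal), the gene-rich share was the one that passed the test. A window was called gene-rich where 1 Mb held 10 or more protein-coding gene starts, which was the case for 31.3% of the sequence. Gene-rich windows held 317 of 839 members in 10Q (37.8%, interval 34.5 to 41.2%) and 124 of 238 in 92Q (52.1%, 45.6 to 58.6%). They held 221 of 555 in sgRNA only (39.8%, 35.7 to 44.0%) and 36 of 62 in non-targeting (58.1%, 44.8 to 70.5%). The 92Q and non-targeting libraries were thus high, and the 10Q and sgRNA-only libraries were low and closer to the genome. The high libraries were also those with the fewest reads, 963 in 92Q and 625 in non-targeting. The low ones had 13152 in 10Q and 8812 in sgRNA only. The part of depth in this grouping was not tested.

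The 92Q share exceeded the 10Q share by 14.3 percentage points (95% Newcombe interval 7.17 to 21.4; two-sided Fisher's exact test between the libraries, adjusted p = 0.000786 over 8 tests). Read support differed between these libraries, and with members of 1 read alone the difference was 13.5 points (116 of 227 against 181 of 482, exact adjusted p = 0.00646). With members of 2 or more reads it was 34.6 points, from 8 of 11 against 136 of 357, and missed the threshold (exact adjusted p = 0.220). The sgRNA-only share lay 18.2 points below the non-targeting share (the difference was -18.2, interval -30.4 to -5.18, exact adjusted p = 0.0263). That call was lost once ends found in several libraries were left out (-13.4 points, exact adjusted p = 0.236) and under other settings given in the closing section.

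The gene-rich share was next compared with the sgRNA-only library, and over the ends below the mapping threshold, in 5 tests added after the first had been seen. The 92Q members exceeded the sgRNA-only members by 12.3 points (4.72 to 19.7, exact adjusted p = 0.00291), while 10Q and sgRNA only differed by -2.04 points (-7.27 to 3.16, exact adjusted p = 0.465). Among the poorly mapped ends, none of them members, 92Q was again the highest of the 3: the share was 41.9% in 92Q (36.3 to 47.8%), 30.2% in 10Q (27.7 to 32.8%) and 27.0% in sgRNA only (24.1 to 30.1%). There 92Q exceeded 10Q by 11.8 points (5.71 to 17.9, exact adjusted p = 0.000373). Mapping quality was 0 to 3 for 933 of 1275 such ends in 10Q, 191 of 298 in 92Q and 599 of 859 in sgRNA only. The places of most of these ends are thus uncertain, and the bearing of this on their shares was not tested. At site 2, where members were few, the well-mapped share was 60.0% of 15 in 10Q and 48.7% of 39 in 92Q, with intervals of 32.3 to 83.7% and 32.4 to 65.2% that overlapped.

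The difference in gene density was spread over chromosomes. The 92Q share was the higher on 15 of 18 chromosomes and the lower on 3. Had each chromosome kept its 10Q share, the 92Q members would have given 40.1% in gene-rich windows instead of 52.1%. Windows with 0 to 2 gene starts held 0.448 times the number expected from their length in 92Q (33 members, Poisson interval 0.308 to 0.629) and 0.820 times in 10Q (213 members, 0.713 to 0.938). In sgRNA only the ratio was 0.780 (134 members, 0.653 to 0.923) and in non-targeting 0.312 (6 members, 0.115 to 0.680). Windows with 10 to 19 starts held 1.53 times the expected number in 92Q (72 members, 1.19 to 1.92), 1.09 in 10Q (181 members, 0.935 to 1.26), 1.28 in sgRNA only (141 members, 1.08 to 1.51) and 1.79 in non-targeting (22 members, 1.12 to 2.71). Windows with 20 or more starts held 1.90 times the expected number in 92Q (1.42 to 2.50), 1.41 in 10Q (1.18 to 1.67), 1.26 in sgRNA only (0.996 to 1.56) and 1.97 in non-targeting (1.08 to 3.30). The median window held 7 gene starts in 10Q, 10 in 92Q, 7 in sgRNA only and 11 in non-targeting.

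**Figure D1:**
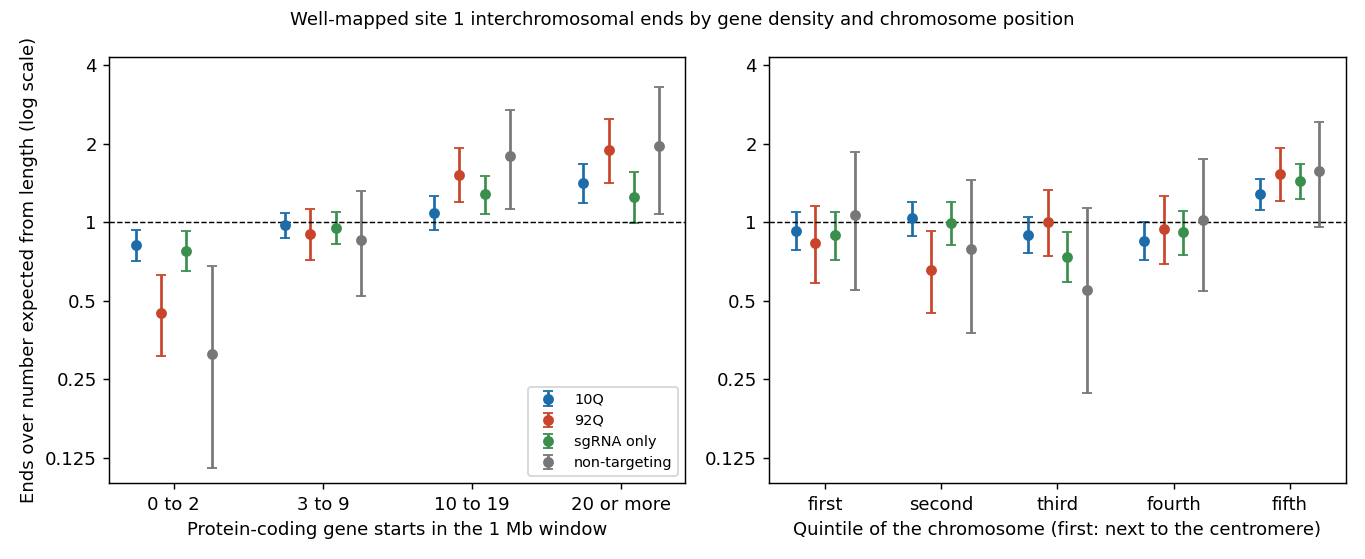
Number of members over the number expected from sequence length (log axis), by protein-coding gene starts in the 1 Mb window (left) and by quintile of the chromosome (right), for each library. Points are ratios and bars exact Poisson 95% intervals. In windows of 0 to 2 starts the 92Q ratio was 0.448 and the 10Q ratio 0.820, and in the last quintile all 4 ratios lay between 1.28 and 1.58.

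Distances to genes followed the order of the gene-rich shares of the members. The median distance from the junction to the closest edge of a protein-coding gene body was 35.1 kb in 10Q, 20.7 kb in 92Q, 30.5 kb in sgRNA only and 16.2 kb in non-targeting. Ends over 100 kb from any such edge were 30.6% of members in 10Q and 20.6% in 92Q, where the genome had 35.3%. These distances were not tested, since they come from the same positions as the gene-rich share.

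By contrast, the share of members inside a protein-coding gene body was alike in value among the 3 targeted libraries. It was 47.7% in 10Q (400 of 839, 44.2 to 51.1%), 47.5% in 92Q (113 of 238, 41.0 to 54.0%), 48.5% in sgRNA only (269 of 555, 44.2 to 52.7%) and 58.1% in non-targeting (36 of 62, 44.8 to 70.5%). Gene bodies covered 41.0% of the sequence. The difference of 92Q from 10Q was -0.197 points with an interval of -7.31 to 6.97 (exact adjusted p = 1), which leaves room for a difference of several points either way. That of sgRNA only from non-targeting was -9.60 points (-21.8 to 3.48, exact adjusted p = 0.340). The site 2 libraries gave 53.3% of 15 in 10Q, 53.8% of 39 in 92Q and 44.1% of 59 in sgRNA only, with an exact adjusted p of 0.796 for each comparison with site 1.

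In 2 libraries the gene body share was higher among the well-mapped ends than among the poorly mapped ones, whose places are mostly uncertain. In 10Q the share was 47.7% of members but 31.1% of the 1275 poorly mapped ends, a difference of 16.6 points (12.4 to 20.8, exact adjusted p = 9.43e-14). In sgRNA only it was 48.5% against 30.7% of 859 ends, a difference of 17.7 points (12.5 to 22.9, exact adjusted p = 8.49e-11). In 92Q it was 47.5% against 44.3% of 298 ends, a difference of 3.18 points (-5.26 to 11.6, exact adjusted p = 0.486). Whether the gap differed between libraries was not tested. The poorly mapped ends also differed in make-up. Quality was 20 to 24 for 105 of 1275 in 10Q, 56 of 298 in 92Q and 96 of 859 in sgRNA only. It was 0 to 3 for 933, 191 and 599 of them. With runs of ends counted once, the gene body difference was 14.6 points in 10Q (exact adjusted p = 3.58e-10). In sgRNA only it was then 14.2 points (exact adjusted p = 1.01e-06). Gene-rich windows held more of the members than of the poorly mapped ends in each of the 3 libraries, by 7.59 points in 10Q (exact adjusted p = 0.000498), 10.2 points in 92Q (exact adjusted p = 0.0280) and 12.8 points in sgRNA only (exact adjusted p = 1.32e-06). The genome shares here count all sequence, whether or not reads can be placed in it, and the part that placement has in the excess of members over the genome was not tested.

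**Figure D2:**
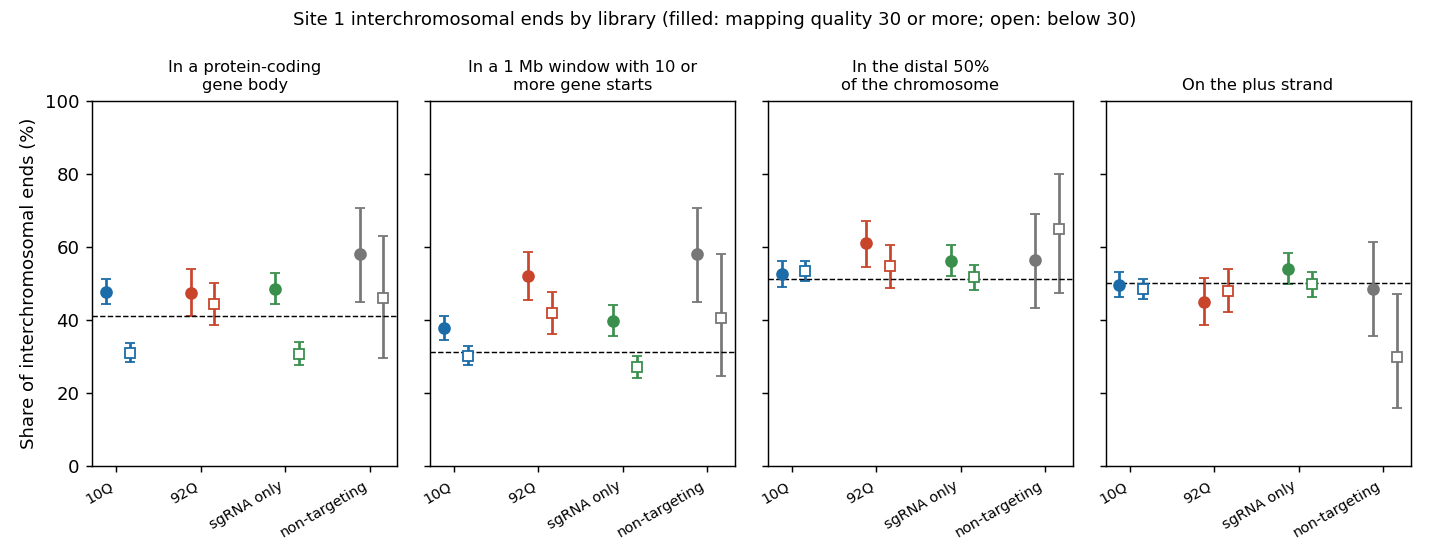
Share of site 1 interchromosomal ends (percent) inside protein-coding gene bodies, in gene-rich windows, in the distal 50% of the chromosome and on the plus strand, for each library. Filled circles are members, open squares ends below the mapping threshold, bars exact Clopper-Pearson 95% intervals and dashed lines the genome's share. The gene-rich share was 52.1% in 92Q and 37.8% in 10Q, while the gene body share was 47.5% and 47.7%.

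Along the chromosomes, members were more frequent toward the far end. Mouse autosomes have the centromere at the coordinate origin, so the last of 5 equal stretches (quintiles) is next to the distal telomere. It held 1.28 times the expected number in 10Q (220 members, 1.12 to 1.46), 1.54 in 92Q (75 members, 1.21 to 1.93), 1.44 in sgRNA only (164 members, 1.23 to 1.68) and 1.58 in non-targeting (20 members, 0.962 to 2.43). The last quintile is also the most gene-dense, with 10.8 protein-coding gene starts per Mb against 7.61 to 8.82 in the other quintiles. Within gene-rich windows the last quintile held 1.42 times the expected number over the 4 libraries (273 members, 1.26 to 1.60), and within the other windows 1.20 times (206 members, 1.04 to 1.37). The ratio was above 1 in both kinds of window. Gene density varies within each kind, and its part in the excess was not tested.

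The distal 50% of each chromosome held 52.6% of members in 10Q, 60.9% in 92Q, 56.2% in sgRNA only and 56.5% in non-targeting, against 51.2% of the sequence. The 92Q share was higher than the 10Q share by 8.36 points (1.20 to 15.2), which missed the threshold (exact adjusted p = 0.0600) but passed it at a mapping quality of at least 40 (9.39 points, exact adjusted p = 0.0378). The sgRNA-only and non-targeting libraries differed by -0.235 points (-12.6 to 12.8, exact adjusted p = 1).

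No strand difference passed its test. The plus strand had 49.6% of members in 10Q (46.1 to 53.0%), 45.0% in 92Q (38.5 to 51.5%), 54.1% in sgRNA only (49.8 to 58.3%) and 48.4% in non-targeting (35.5 to 61.4%). The difference of 92Q from 10Q was -4.62 points (-11.7 to 2.57, exact adjusted p = 0.340) and that of sgRNA only from non-targeting 5.67 points (-7.19 to 18.3, exact adjusted p = 0.563). Relative to the gene, where 1 gene with a known strand held the member, reads ran in the direction of transcription in 149 of 317 cases in 10Q (47.0%, 41.4 to 52.7%), 34 of 83 in 92Q (41.0%, 30.3 to 52.3%) and 90 of 202 in sgRNA only (44.6%, 37.6 to 51.7%). In non-targeting they did so in 22 of 32 (68.8%, 50.0 to 83.9%). The non-targeting value was the highest of the 4, on the fewest members, and was not tested.

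Every targeted library had members on all 18 chromosomes. Comparing 92Q with 10Q, 0 of 18 chromosomes passed two-sided Fisher's exact tests after Benjamini-Hochberg adjustment (0% called), and 1 had an unadjusted p under 0.05. That was chromosome 1, with 11 members in 92Q (4.62%) and 81 in 10Q (9.65%; exact p = 0.0124, adjusted p = 0.224). Comparing 10Q with sgRNA only, 0 of 18 passed and 2 had an unadjusted p under 0.05, with a lowest adjusted p of 0.361. These were chromosome 16, with 5.01% of members in 10Q and 2.52% in sgRNA only, and chromosome 18, with 2.74% and 4.86%. Comparing 92Q with sgRNA only, 0 of 18 passed, 0 had an unadjusted p under 0.05, and the lowest adjusted p was 0.693.

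Relative to length, the interval of the ratio left out 1 for 4 chromosomes in 10Q, 1 in 92Q and 2 in sgRNA only. Chromosome 9 was low beyond its interval in 2 libraries, with 0.604 times its expected number in 10Q (27 members, 0.398 to 0.879), 0.508 in sgRNA only (15 members, 0.284 to 0.837) and 0.710 in 92Q (9 members, 0.325 to 1.35). Chromosome 15 was high in 10Q at 1.48 times (55 members, 1.12 to 1.93), with 1.34 in sgRNA only (33 members, 0.926 to 1.89) and 0.855 in 92Q (9 members, 0.391 to 1.62). Chromosome 8 was high in sgRNA only at 1.40 times (43 members, 1.01 to 1.89), with 1.25 in 10Q (58 members, 0.948 to 1.61) and 0.911 in 92Q (12 members, 0.471 to 1.59). Chromosome 6 had 1.28 in 10Q (0.996 to 1.62), 1.29 in sgRNA only (0.944 to 1.72) and 0.981 in 92Q (0.549 to 1.62), all with 1 inside the interval. Chromosome 13 was low in 10Q at 0.649 times (0.431 to 0.938), with 0.654 in 92Q (0.282 to 1.29) and 0.666 in sgRNA only (0.401 to 1.04). Chromosome 1 was low in 92Q at 0.548 times (0.274 to 0.981). Chromosome 7, the most gene-dense at 14.2 starts per Mb, held 0.726 times in 10Q (0.514 to 0.997), 0.722 in sgRNA only (0.467 to 1.07) and 1.15 in 92Q (0.667 to 1.83). Chromosome 17, at 11.4 starts per Mb, held 1.21 times in 10Q (0.871 to 1.65), 1.34 in sgRNA only (0.906 to 1.92) and 1.57 in 92Q (0.876 to 2.58). The relation of the ratio to gene density over the chromosomes was not tested.

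**Figure D3:**
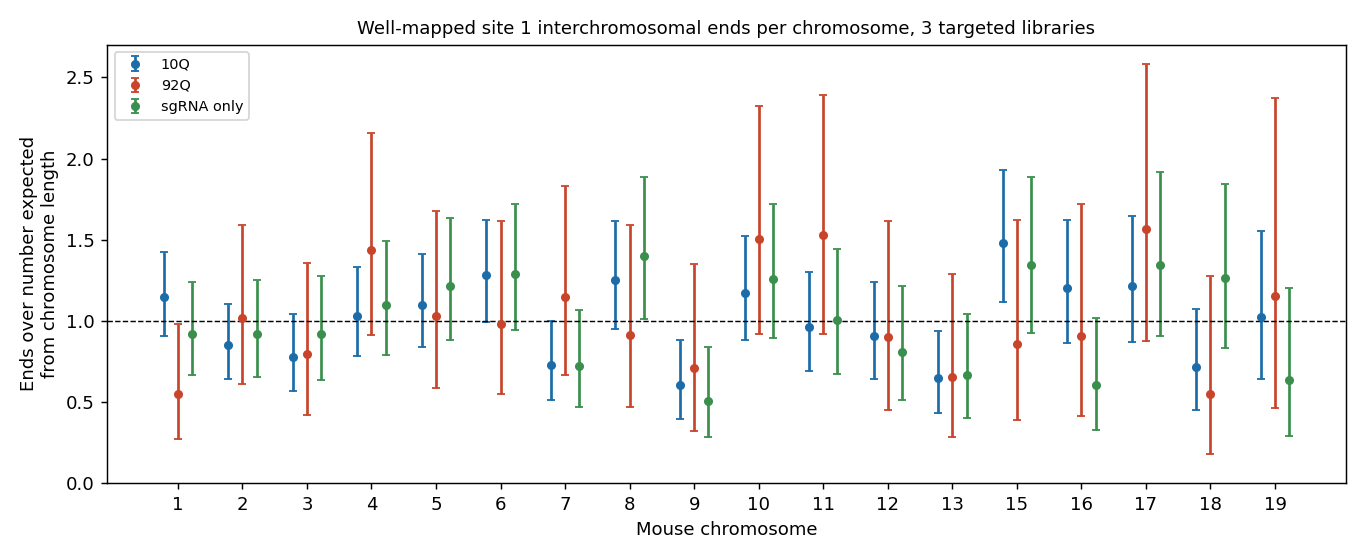
Number of members on each chromosome over the number expected from its length, for the 3 targeted libraries, with exact Poisson 95% intervals as bars. Chromosome 15 was high in 10Q (1.48) and chromosome 9 low in 10Q (0.604) and sgRNA only (0.508), and the 92Q intervals are the widest because that library had 238 members.

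Members rarely gathered at 1 place. The median gap between neighbouring members on a chromosome was 1607 kb in 10Q, 4974 kb in 92Q and 2482 kb in sgRNA only. A run of 3 or more members of a library linked by gaps of at most 10 kb was found once, in the 10Q library within Pakap, an A-kinase anchoring protein gene on chromosome 4. Its ends at 57517748, 57525899 and 57533154 had 4, 6 and 2 reads and spanned 15.4 kb, with 2 on the plus strand and 1 on the minus strand. A further Pakap member, at 57585283 with 2 reads, came from the sgRNA-only library.

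A member lay in 762 of the 19710 protein-coding genes on these chromosomes, and 76 genes held 2 or more. An end inside overlapping genes counted for each of them, so the 269 members in gene bodies in sgRNA only gave 285 genes. The genes hit were long: their median body was 99.2 kb, compared with 17.6 kb over all protein-coding genes, and 378 (49.6%) were over 100 kb, compared with 11.2% of all. Genes with 2 or more members had a median of 220.7 kb, and the 13 with 3 or more a median of 462.5 kb. Gene lists are therefore given beside the number of members expected from their summed length.

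In 8 of the 13 genes with 3 or more members, Pakap among them, the members lay at separate positions. Of these, Erbb4, Csmd3 and Astn2 are in the list of long neural genes and Dpyd in that of common fragile site genes, while Pakap, Kalrn, Eya2 and Tmem117 are in neither. Erbb4, a neuregulin receptor of 1077 kb, had a 10Q member with 5 reads at 68153560 and sgRNA-only members with 2 and 1 reads at 68354876 and 68620653 of chromosome 1. Csmd3, a 1212 kb gene for a large membrane protein on chromosome 15, had 1 member in 10Q and 2 in sgRNA only. Astn2, an astrotactin gene linked to neuronal migration, had 2 members in 10Q and 1 in sgRNA only, but the 10Q ends lay at 65867256 and 65867257 of chromosome 4, 1 base apart on the same strand with 1 read each. Dpyd, the pyrimidine-degrading dehydrogenase gene, and Kalrn, the kalirin gene, each had 2 members in 10Q and 1 in 92Q. Eya2, a transcriptional coactivator gene of 176.7 kb, had 2 members in 92Q and 1 in sgRNA only, and Tmem117, a membrane protein gene, had 2 in sgRNA only and 1 in non-targeting.

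The other 5 had the same end in several libraries. These were Shld1, Cntrl (centriolin, a centrosome protein), Atp6v1c1 (a subunit of the vacuolar proton pump), Col13a1 (a transmembrane collagen) and Rapgef5 (an exchange factor for Rap GTPases), and their ends are described below.

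Long neural genes held 32 members, in 21 of 42 genes on these chromosomes, against 39.0 expected from their length (ratio 0.821, Poisson interval 0.561 to 1.16). Over all protein-coding genes the ratio was 1.18 (818 members, 1.10 to 1.26). By library the long neural genes had 12 members in 10Q (ratio 0.621), 4 in 92Q (0.730), 16 in sgRNA only (1.25) and 0 in non-targeting, where the interval reaches 2.59. Besides Erbb4, Csmd3 and Astn2, list genes with more than 1 member had 2 each. Cntn4, a contactin gene, and Pcdh15, a protocadherin gene, each had 1 in 92Q and 1 in sgRNA only. Lingo2 and Sox6 each had 1 in 10Q and 1 in sgRNA only, and Sox5, like Sox6 a gene for an HMG-box transcription factor, had 2 in sgRNA only, 1 read each.

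Common fragile site genes, large genes that break under replication stress, held 11 members in 8 of 15 genes, against 13.5 expected (ratio 0.816, 0.407 to 1.46). Of these, 6 were in 10Q, 2 in 92Q, 3 in sgRNA only and 0 in non-targeting. Dpyd had 3 and Naaladl2 had 2, both from sgRNA only with 1 read each. Neither list of large genes held more members than its length gives.

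The shorter lists held single members. Of 26 double-strand break response genes, Nhej1, the end-joining factor XLF, had 1 member with 3 reads in 10Q, and Lig3, DNA ligase III, had 1 with 2 reads in sgRNA only. Of 20 SAGA genes, Trrap, the large scaffold of the complex, had 1 member with 7 reads in 10Q. Of 7 polyglutamine disease genes, Cacna1a, a calcium channel gene, had 1 member with 1 read in 92Q, and Atxn1, the ataxin-1 gene, had 1 with 1 read in sgRNA only. Of 18 neuroblastoma and sympathetic markers, Alk, a receptor kinase gene, had 1 member with 1 read in 92Q. The numbers expected from length over the 4 libraries were 1.29, 0.741, 0.774 and 0.887 for these lists, in that order, and every interval included a ratio of 1.

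Most members were seen in 1 library, but 24 ends occurred at the same base and strand in 2 or more site 1 libraries. Of the 1661 distinct member ends, these 24 are 1.44%, and they account for 57 members. One was in all 4 libraries, 7 in 3 and 16 in 2, over 12 chromosomes. The non-targeting library had 13 of the 24 and lacked 11. Shared ends were 13 of its 62 members (21.0%, interval 11.7 to 33.2%), compared with 19 of 839 in 10Q (2.26%, 1.37 to 3.51%), 10 of 238 in 92Q (4.20%, 2.03 to 7.59%) and 15 of 555 in sgRNA only (2.70%, 1.52 to 4.42%). Thus about 1 in 5 non-targeting members coincided with a member of another library.

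The coincidence was nearly always to the base. Allowing 1 kb added 2 members in 10Q, 1 in sgRNA only and none in the others, giving 21, 10, 16 and 13, and allowing 10 kb gave 28, 12, 21 and 14. By pairs, 10Q and sgRNA only shared 12 ends (1.43% of the 10Q members and 2.16% of the sgRNA-only members). 10Q and non-targeting shared 9 (1.07% and 14.5%), sgRNA only and non-targeting 7 (1.26% and 11.3%), and 10Q and 92Q 6 (0.715% and 2.52%). 92Q shared 5 with sgRNA only (2.10% and 0.901%) and 4 with non-targeting (1.68% and 6.45%). None of the 1694 members (0, which allows a share of up to 0.177%) fell on an end of a site 2 off-cut list. This limit places all the error on the upper side, unlike the intervals given for other shares. Interchromosomal ends at site 2 were few, with 57 in 10Q, 96 in 92Q, 149 in sgRNA only and 48 in non-targeting. The lack of overlap between the sites therefore says little.

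The shared end in every library was that in Shld1, with 1 read in 10Q, 2 in 92Q, 2 in sgRNA only and 1 in non-targeting. The end in Cntrl, at 35174211 of chromosome 2, had 8 reads in 10Q, 3 in sgRNA only, 4 in non-targeting and 0 in 92Q. That in Atp6v1c1, at 38668896 of chromosome 15, had 3, 5, 1 and 0 in the same order of libraries. These ends were thus read in the library without a bait-directed cut as well as in targeted ones.

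In Col13a1 the end at 61854296 of chromosome 10 had 2 reads in 92Q, 1 in sgRNA only, 2 in non-targeting and 0 in 10Q. In Rapgef5 the end at 117754170 of chromosome 12 had 1 read in 10Q, 3 in sgRNA only and 1 in non-targeting. The end 79.9 kb from Stx16, a syntaxin gene of vesicle transport, had 3 in 10Q, 3 in sgRNA only and 2 in non-targeting. The most-read shared end was in Pabpc1l, a poly(A)-binding protein gene on chromosome 2, at 164047606, with 11 reads in 10Q and 7 in non-targeting and none in the other two. The 11 reads made it the member with the most reads in 10Q, and the 7 that of the non-targeting library.

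Shared ends of 3 libraries without the non-targeting one lay 153.3 kb from Siglech, a lectin gene of plasmacytoid dendritic cells, with 3 reads in 10Q, 1 in 92Q and 1 in sgRNA only, and 122.3 kb from Tnks, which encodes the telomere-associated enzyme tankyrase, with 1 in each. An end 2.75 kb from Togaram2, a gene for a TOG-domain protein, had 5 reads in non-targeting and 1 in sgRNA only. Among the remaining shared ends, Gfap, the astrocyte filament gene, had 4 in 10Q and 1 in non-targeting.

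**Figure D4:**
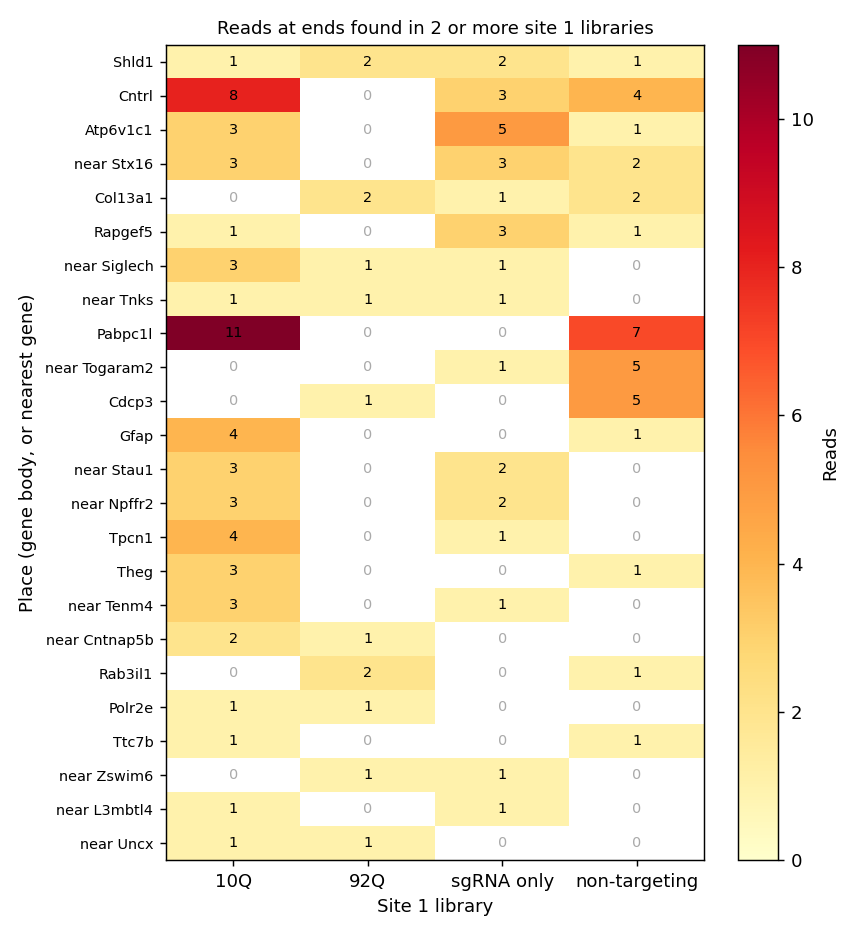
Reads at each of the 24 ends found at the same base and strand in 2 or more site 1 libraries (places down the side, named by the gene body or the nearest gene, and libraries across). Colour and number give reads. The end in Shld1 was read in all 4 libraries, and the end in Pabpc1l had 11 reads in 10Q and 7 in non-targeting.

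Of the 24 shared ends, 13 (54.2%, 32.8 to 74.4%) lay in protein-coding gene bodies, 14 in gene-rich windows and 11 on the plus strand. In the non-targeting library 11 of 13 shared members were in gene bodies (84.6%, 54.6 to 98.1%) and 25 of 49 private ones (51.0%, 36.3 to 65.6%). In 10Q the values were 10 of 19 shared (52.6%, 28.9 to 75.6%) and 390 of 820 private (47.6%, 44.1 to 51.0%). Read support of 2 or more was found for 12 of 19 shared members in 10Q (63.2%, 38.4 to 83.7%) and 345 of 820 private ones (42.1%, 38.7 to 45.5%). The intervals of shared and private members overlapped in each of these pairs. Over the 4 libraries together, gene-rich windows held 33 of 57 shared members (57.9%, 44.1 to 70.9%) and 665 of 1637 private ones (40.6%, 38.2 to 43.0%), and these intervals did not overlap. The 57 members are 24 ends counted once per library, so they are not independent, and the difference was not tested. Among poorly mapped site 1 ends, 56 of 2407 (2.33%) were in 2 or more libraries, and among well-mapped site 2 ends 1 of 140 (0.714%).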

How the data were processed

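Genome-wide translocation sequencing lists of 8 libraries were available, 4 of them at site 1. The authors deposited an on-cut and an off-cut list per library, 16 in all, with 1 aligned read a line and 1 measured value, a score that is the mapping quality (0 to 42). Per the submitters' processing notes, Bowtie2 was used and 2 builds, mm10 and mm9, occur, without version or role. mm10 was used, since the bait end fell in Dach1 on it. How reads were filtered, deduplicated and assigned to either list is not given in the sources used here.

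Reads with the same chromosome, 5′ end and strand were counted as 1 end, keeping the highest mapping quality. Gene bodies came from the RefSeq table of GRCm38.p6, with 49603 genes used, 21779 of them protein-coding. It gives no exons. Its 340 entries in the first 3 Mb were dropped, and that stretch was left out of lengths. A chromosome's length was taken as its last gene end, which gave 2281.6 Mb over 18 chromosomes. The gene start in a window was the lower coordinate of the body. Distance from the nearest body edge replaced the planned distance from the gene start, since the promoter table (32851 windows) lacks chromosome 18 and many genes.

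Shares have exact Clopper-Pearson and counts exact Poisson intervals of 95%. Comparisons between libraries used Fisher's exact test, two-sided, adjusted by Benjamini-Hochberg over 8 tests between libraries, 6 between mapping classes, 3 between sites and 18 chromosomes a pair, at 0.05 (Python 3.11.15, scipy 1.17.1, pandas 2.3.3, numpy 2.4.6). The chromosome test was tested on simulated data. Alternatives were a mapping quality of 20 or 40, ends within 5 bp merged, ends of 2 or more reads, every read counted, runs of ends counted once, ends near non-targeting ones left out, genes of every kind, 15 gene starts, and other distances for shared ends. Added after seeing the data were ends of 1 read, ends of 1 library, and the 5 further gene-rich tests.

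Named genes were the 15 protein-coding genes with the most members, at least 3 (13 qualified), list genes with at least 2, and the genes at the 10 closest shared places. All shared places were 0 bases apart, so they were ordered by libraries, then reads. Other genes named, among them Gfap, those of the promoters and the list genes with 1 member, were chosen after their values were seen. The members, lists and tests were chosen with earlier results of these data known.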

Additional observations from a re-analysis of the deposited data

How the results depend on the processing

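The excess of gene-rich windows in 92Q over 10Q ranged from 9.18 to 34.6 percentage points over 10 alternatives and passed the threshold in all but that with ends of 2 or more reads (34.6 points on 11 members of 92Q). The deficit of sgRNA only against non-targeting missed it with ends of 2 or more reads (-13.5 points), with 15 gene starts (-9.01), without ends found in several libraries (-13.4) and with ends of 1 read (-20.9). The gene body difference of 92Q from 10Q, close to 0, turned positive at a mapping quality of 20 (1.29 points) and 40 (0.952), with ends of 2 or more reads (5.53), with genes of every kind (2.86) and with ends of 1 read (0.456), never past the threshold. That of sgRNA only from non-targeting passed it with genes of every kind (-16.0) and turned to 3.67 with ends of 2 or more reads. The distal 50% difference of 92Q from 10Q passed it at a mapping quality of 40 (9.39) and turned to -4.97 with ends of 2 or more reads. That of sgRNA only from non-targeting turned to 0.963 at a mapping quality of 40, to 2.51 without ends of several libraries and to 6.49 with ends of 1 read. Counting every read turned the strand difference of 92Q from 10Q to 1.14 and the gene body difference of 92Q between mapping classes to -1.78, and called 2 chromosomes, 1 of them that with the 34-read member. The gene-rich difference between mapping classes missed the threshold with ends of 2 or more reads in 10Q (6.13) and 92Q (27.3), and with 15 gene starts in 92Q (5.43). The cause was not tested in any of these cases. Some settings kept fewer ends, but others, such as a mapping quality of 20 or genes of every kind, did not. In all, 138 of the values kept their direction and side of the threshold, or stayed alike where they were counts of chromosomes called or shared places. Another 12 turned in sign, 8 fell short of the threshold, 2 came to pass it, and 1 count of chromosomes moved. The 3 site comparisons with ends of 2 or more reads had no site 2 ends to compare. No paired analysis was possible because each condition was 1 pooled library, and for the same reason none could be left out in turn. The 62 non-targeting and 238 92Q members limit every comparison with them.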
